A study of Trametes coccinea with 18 samples.

Results

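The genes described here are 4 gene models of the white-rot basidiomycete Pycnoporus coccineus CIRM-BRFM 310 (Pycco 310, listed under the name Trametes coccinea) that the study's annotation places in families of xylan-degrading glycoside hydrolases (GH). They are PYCCODRAFT_1435885 and PYCCODRAFT_1395316 of family GH10, PYCCODRAFT_1435501 of family GH43 and PYCCODRAFT_1426831 of family GH115, and they were chosen by these identifiers (the locus tags of the Pycco1 assembly) from the 12690 gene models of the count table. The number in each tag is the study's protein identifier, so that 1435885's and 1395316's family is GH10, 1435501's is GH43 and 1426831's is GH115. The mycelium was sampled at day 3 of liquid culture on 6 carbon sources, with 3 libraries each and 18 in all. The control medium held maltose at 20 g/l and no other substrate. The other media held maltose at 2.5 g/l with 15 g/l of Avicel (a microcrystalline cellulose), aspen, pine, wheat straw or a mixture of xylans and galactomannans (xylan-galactomannan). These are the media as the labels give them, whereas the study's methods call each substrate the only carbon source and do not mention the lower maltose. All cultures shared the strain, the salts and a small amount of yeast extract. A comparison to maltose changes the amount of maltose and the substrate together, and these cannot be told apart.

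Replicate 3 of xylan-galactomannan has conflicting labels. Its title and its agent name xylan-galactomannan, whereas its free-text description names wheat straw. Across 10841 gene models (genes are not independent replicates), its log2 normalized counts correlated with those of the other xylan-galactomannan libraries at r = 0.952 to 0.975 and with the wheat straw libraries at r = 0.945 to 0.948. It was kept under its title, and counts of genes called on xylan-galactomannan are also given without it. Library totals ranged from 26370228 to 42190522 counts. The 4 genes had between 26 and 28218 counts in a library, and all passed the filter on low counts in every comparison. Libraries of a carbon source differed for these genes by up to 15.4 times in RPKM (reads scaled to mappable length and library total), and the libraries that stand apart are named beside the genes they concern.

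Xylan is the main hemicellulose of hardwoods and grasses, a chain of xylose units that carries acetyl groups, glucuronic acid and arabinose, whereas softwood holds an arabinose-bearing xylan beside galactoglucomannan. GH10 enzymes are endo-xylanases, which cut inside the xylan backbone and tolerate side chains. Family GH43 includes xylosidases and arabinofuranosidases, which release xylose from chain ends or arabinose from side chains, and GH115 enzymes are alpha-glucuronidases, which remove the glucuronic acid. The backbone genes are described first and the genes of the other families after them. The gene PYCCODRAFT_1435885 spans 2275 bases of the Pycco1 assembly with a transcript of 1689 bases, and PYCCODRAFT_1395316 spans 2300 bases with a transcript of 1852 bases. The gene PYCCODRAFT_1435501 spans 1550 bases with a transcript of 1152 bases, and PYCCODRAFT_1426831 spans 4140 bases with a transcript of 3069 bases. The mappable length behind the RPKM was 1240, 1162, 1078 and 2956 bases in the same order, and whether reads of these genes are shared with near-identical copies was not tested. Scaffold names and exon positions are not given in the sources used here.

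The GH10 gene PYCCODRAFT_1435885 was transcribed at its highest level on aspen and at a low level on both maltose and xylan-galactomannan. Its RPKM were 2.01, 2.00 and 3.62 on maltose (replicates 1, 2 and 3). They were 203, 119 and 253 on aspen, 107, 228 and 20.9 on pine, and 55.2, 55.7 and 52.0 on wheat straw. On Avicel they were 12.2, 101 and 16.9, and on xylan-galactomannan 4.0, 3.55 and 3.34. The wheat straw libraries lay close together, while replicate 2 on Avicel was the high one and replicate 3 on pine the low one of their groups. Within a library the gene stood between the 23.6th and the 28.5th percentile of RPKM on xylan-galactomannan and between the 88.7th and the 94.3rd on aspen.

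On the log2 scale, the edgeR fold changes of PYCCODRAFT_1435885 against maltose were 6.36 on aspen (SE 0.90, adjusted p = 2.19e-05), 5.97 on pine (SE 0.88, adjusted p = 2.64e-05), 4.25 on wheat straw (SE 0.82, adjusted p = 0.00046) and 3.91 on Avicel (SE 0.81, adjusted p = 0.00086). In each of these comparisons, all 3 libraries lay above all 3 maltose libraries. In bulk mycelium, more hyphae that transcribe a gene and more transcript in each of them cannot be told apart. The Avicel value rested in large part on 1 library, since without Avicel replicate 2 the change was 2.36 and still called. Without pine replicate 2, the change on pine was 4.94 and still called. On xylan-galactomannan the change was 0.39 with a 95% interval from -1.09 to 1.88 (adjusted p = 0.665), the libraries overlapped in RPKM with those on maltose, and the gene was not called. Without replicate 3 of xylan-galactomannan the change was 0.47.

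Ordered by mean log2 normalized count, PYCCODRAFT_1435885 stood at 13.0 ± 0.57 on aspen (SD, n = 3), 12.10 ± 1.76 on pine, 10.95 ± 0.05 on wheat straw, 9.95 ± 1.65 on Avicel, 7.08 ± 0.21 on xylan-galactomannan and 6.70 ± 0.31 on maltose. Among the first 4, no difference between neighbours in this order was called. Pine against aspen gave -0.39 (95% interval -1.88 to 1.10), wheat straw against pine -1.71 (-3.24 to -0.19, adjusted p = 0.068) and wheat straw against Avicel 0.35 (-1.15 to 1.84). Without Avicel replicate 2, the last of these was called with 1.89 (adjusted p = 0.033). Without pine replicate 3, wheat straw against pine was called with -2.17 (adjusted p = 0.0177). The step from Avicel down to xylan-galactomannan was called at -3.54 (SE 0.74, adjusted p = 0.00075), or -2.0 without Avicel replicate 2. Aspen exceeded Avicel by 2.45 (adjusted p = 0.0134), but without Avicel replicate 1 the value was 2.0 and no longer called (adjusted p = 0.0534), and without Avicel replicate 2 it was 4.0. Pine exceeded Avicel by 2.06 (adjusted p = 0.0216), with a call that was lost without pine replicate 2 (1.07), Avicel replicate 1 (1.61) or Avicel replicate 3 (1.69). Without Avicel replicate 2 that change was 3.61.

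The second GH10 gene, PYCCODRAFT_1395316, was high on aspen and low on every other carbon source. Its RPKM on aspen were 318, 311 and 252, which placed it between the 94.2nd and the 95.2nd percentile of a library. On every other carbon source no library exceeded 3.69 RPKM. The values were 0.68, 0.69 and 1.61 on maltose, 2.05, 1.12 and 1.21 on Avicel, 2.81, 2.11 and 2.55 on pine, 3.61, 1.47 and 3.28 on wheat straw, and 3.26, 2.45 and 3.69 on xylan-galactomannan. The aspen libraries were thus apart from the other 15, with no library between them.

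Against maltose, PYCCODRAFT_1395316 rose by 8.34 on aspen (SE 0.40, 95% interval 7.48 to 9.20, edgeR adjusted p = 1.16e-09), which is 324-fold. The gene also rose by 1.74 on pine (SE 0.34, adjusted p = 0.000351), by 1.55 on xylan-galactomannan (SE 0.33, adjusted p = 0.000683) and by 1.34 on wheat straw (SE 0.33, adjusted p = 0.00348). These changes were small, and on wheat straw the libraries overlapped with those on maltose, replicate 2 being lower than the highest maltose library. On Avicel the gene was not called, with 0.39 and an interval from -0.35 to 1.12. Pine minus aspen was -6.60 (SE 0.37, adjusted p = 2.18e-08) and wheat straw minus aspen -7.0 (SE 0.38, adjusted p = 3.27e-08). Aspen minus Avicel was 7.95 (SE 0.40, adjusted p = 3.32e-09). The remaining sources were close in order, with xylan-galactomannan minus pine at -0.19 (-0.83 to 0.46), xylan-galactomannan minus wheat straw at 0.18 (-0.45 to 0.82) and wheat straw minus pine at -0.40 (-1.06 to 0.26), none of them called. Pine and xylan-galactomannan exceeded Avicel by 1.36 and 1.14, and the latter fell under the fold limit without Avicel replicate 2 (0.98). Wheat straw minus Avicel was 0.96, under the limit, and passed it without wheat straw replicate 2 (1.27) or without Avicel replicate 1 (1.24).

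**Figure D1:**
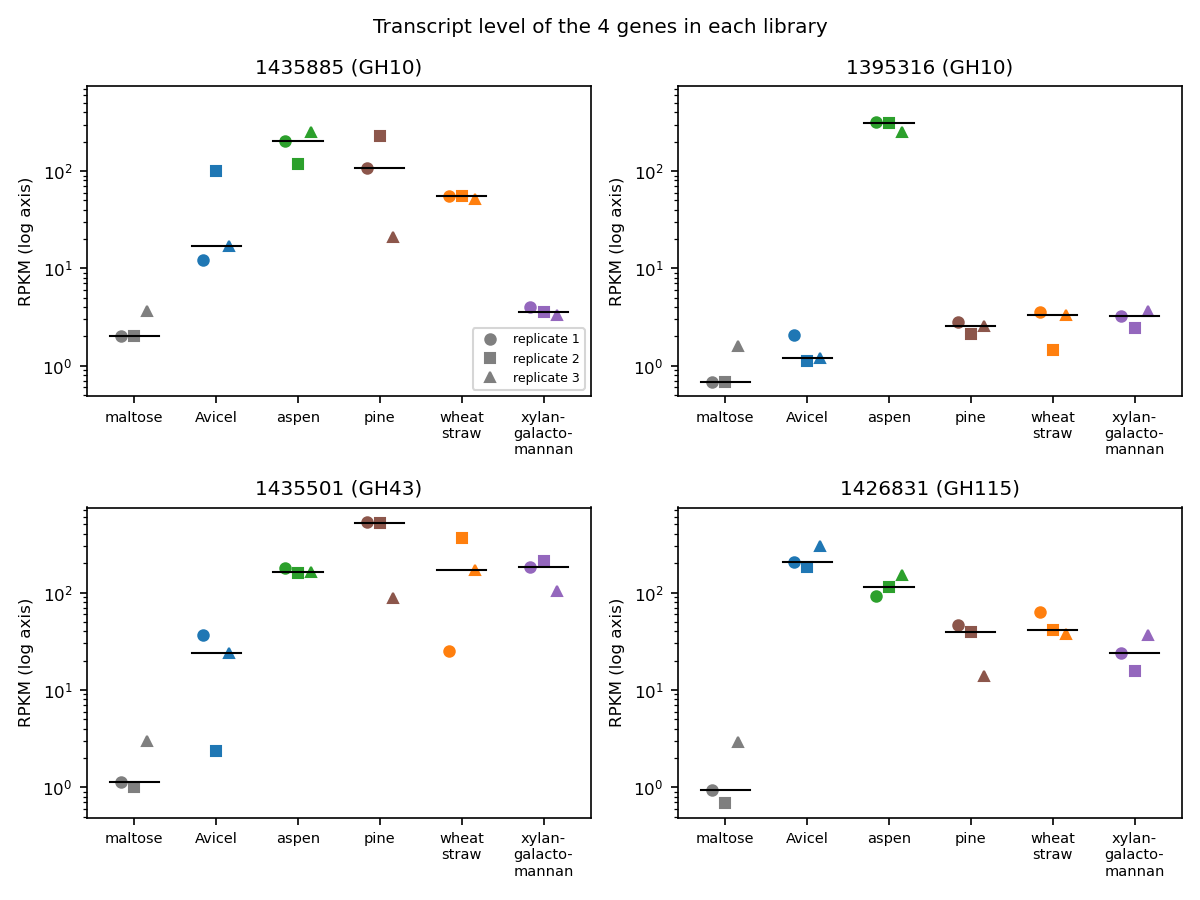
Transcript level of each gene in RPKM on a log axis (vertical) by carbon source (horizontal). Each symbol is 1 library, its shape gives the replicate number, and the black line is the median of 3 libraries. The aspen libraries of PYCCODRAFT_1395316 lie between 252 and 318 RPKM, all above the other 15, while PYCCODRAFT_1435885 on xylan-galactomannan lies between 3.34 and 4.0 RPKM beside its maltose libraries.

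The GH43 gene PYCCODRAFT_1435501 was transcribed at a high level on pine, aspen, wheat straw and xylan-galactomannan, and this was the member with the highest level on xylan-galactomannan. Its RPKM were 535, 518 and 87.7 on pine, 180, 158 and 163 on aspen, 25.4, 365 and 172 on wheat straw, and 185, 213 and 103 on xylan-galactomannan. On Avicel they were 36.5, 2.36 and 24.2, and on maltose 1.13, 1.01 and 2.98. The aspen libraries agreed closely, whereas pine replicate 3, wheat straw replicate 1 and Avicel replicate 2 were far below the other libraries of their groups. Avicel replicate 2 lay within the range of the maltose libraries for this gene, although it was the highest Avicel library for the GH10 gene PYCCODRAFT_1435885.

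Against maltose, PYCCODRAFT_1435501 rose by 8.23 on pine (SE 1.14, edgeR adjusted p = 1.42e-05), 6.76 on aspen (SE 1.08, adjusted p = 7.36e-05), 6.63 on wheat straw (SE 1.07, adjusted p = 9.10e-05), 6.53 on xylan-galactomannan (SE 1.02, adjusted p = 3.15e-05) and 3.47 on Avicel (SE 0.95, adjusted p = 0.00644). Without wheat straw replicate 2, the change on wheat straw was 5.73 and still called. In log2 normalized counts the levels were 13.75 ± 1.47 on pine (SD, n = 3), 12.67 ± 0.10 on aspen, 12.33 ± 0.64 on xylan-galactomannan, 11.85 ± 1.96 on wheat straw, 8.65 ± 2.11 on Avicel and 5.81 ± 0.67 on maltose. Among the first 4 no pair was called. Xylan-galactomannan minus aspen was -0.24 (95% interval -1.89 to 1.40), xylan-galactomannan minus wheat straw -0.13 (-1.77 to 1.51) and xylan-galactomannan minus pine -1.70 (-3.39 to -0.01, adjusted p = 0.0811). The last of these was called without pine replicate 3 (-2.17), and it kept its value of -1.70 and was called without Avicel replicate 2 or without wheat straw replicate 1. All of these 4 exceeded Avicel, by 4.76 for pine (adjusted p = 0.000462), 3.29 for aspen (adjusted p = 0.00745), 3.16 for wheat straw (adjusted p = 0.0102) and 3.03 for xylan-galactomannan (adjusted p = 0.00646). The wheat straw call was lost without wheat straw replicate 2 (2.26, adjusted p = 0.0508).

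The GH115 gene PYCCODRAFT_1426831 had a different order, with its highest level on Avicel. Its RPKM were 204, 183 and 304 on Avicel, 92.7, 114 and 150 on aspen, 63.2, 41.5 and 37.9 on wheat straw, 46.1, 39.6 and 13.8 on pine, and 23.9, 15.7 and 36.4 on xylan-galactomannan. On maltose they were 0.95, 0.70 and 2.89. Every library on a substrate was above every maltose library, and replicate 3 was the low one on pine and the high one on maltose.

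Against maltose, PYCCODRAFT_1426831 rose by 7.15 on Avicel (SE 0.57, edgeR adjusted p = 9.58e-08), 6.47 on aspen (SE 0.55, adjusted p = 1.16e-07), 4.91 on pine (SE 0.52, adjusted p = 8.62e-07), 4.87 on wheat straw (SE 0.52, adjusted p = 1.15e-06) and 3.98 on xylan-galactomannan (SE 0.50, adjusted p = 2.84e-06). Without maltose replicate 3, in which all 4 genes had their highest level on maltose, the values were 4.69 on xylan-galactomannan, 5.56 on wheat straw, 5.60 on pine, 7.16 on aspen and 7.84 on Avicel. The difference between aspen and Avicel was not called (-0.67, 95% interval -1.60 to 0.25), although the RPKM of the groups did not overlap. Pine and wheat straw were lower than Avicel, by fitted changes of -2.24 (adjusted p = 0.000472) and -2.28 (adjusted p = 0.000997). They were also lower than aspen, at -1.56 (adjusted p = 0.014) and -1.60 (adjusted p = 0.020). The pine call against aspen was lost without pine replicate 3 (-1.21), and the wheat straw call without aspen replicate 3 (-1.39), wheat straw replicate 2 (-1.5) or wheat straw replicate 3 (-1.46). Wheat straw minus pine was -0.04 (-0.96 to 0.88). On xylan-galactomannan the gene was lower than on Avicel (-3.19, adjusted p = 3.08e-05) and aspen (-2.50, adjusted p = 0.000401), and not called against pine (-0.92, adjusted p = 0.0883) or wheat straw (-0.90, adjusted p = 0.111). Without replicate 3 of xylan-galactomannan, the difference to pine was called at -1.24 (adjusted p = 0.0436), and without pine replicate 3 at -1.28 (adjusted p = 0.0184).

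**Figure D2:**
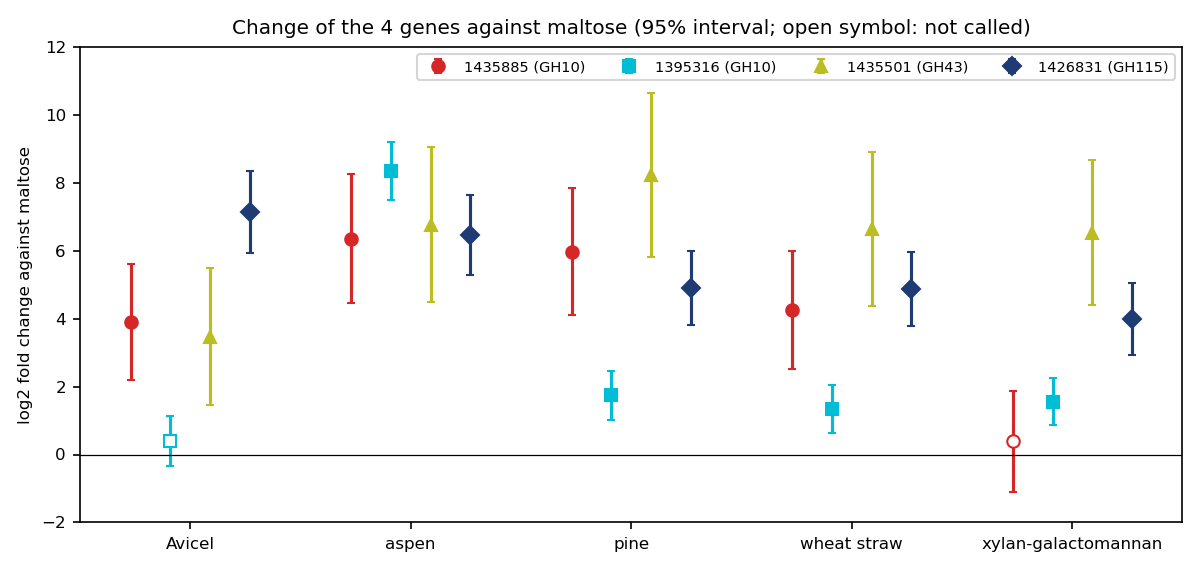
Log2 fold change of each gene against maltose (vertical) on the other carbon sources (horizontal), from edgeR, with bars for the 95% interval. Open symbols were not called. The GH10 gene PYCCODRAFT_1395316 is at 8.34 on aspen and between 0.39 and 1.74 elsewhere, the GH10 gene PYCCODRAFT_1435885 is at 0.39 on xylan-galactomannan, and the GH115 gene is at its highest, 7.15, on Avicel.

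Counted over the members, the comparison to maltose gave 4 of 4 called higher on aspen, where 19.5% of all gene models tested were called higher, 4 of 4 on pine (22.1% of all), 4 of 4 on wheat straw (17.3%), 3 of 4 on Avicel (14.1%) and 3 of 4 on xylan-galactomannan (19.4%). The median log2 fold change of the members was 6.62 on aspen, 5.44 on pine, 4.56 on wheat straw, 3.69 on Avicel and 2.76 on xylan-galactomannan, whereas the median over all gene models lay between -0.02 and 0.07. The study took both GH10 genes and the GH43 gene from clusters with a high level on plant substrates but not on maltose or Avicel. It also required a rise against maltose, all in these same libraries. The GH115 gene came through a cluster of genes with similar transcription and many secreted proteins. That cluster had its highest mean level on Avicel in the study. The rise of these genes against maltose and their differences to Avicel are therefore no independent evidence. The 3 libraries on xylan-galactomannan were not part of that choice, but the libraries they are compared with were.

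Between the substrates the members differed in direction, and the study's choice of genes bears on the comparisons to Avicel. For aspen minus Avicel, 3 members were higher and 0 lower (25.3% of all gene models were called), and for pine minus Avicel 3 were higher and the GH115 gene lower (42.9% of all). For wheat straw minus Avicel the GH43 gene was higher and the GH115 gene lower (22.0%). For pine minus aspen (17.0%) and for wheat straw minus aspen (10.6%), PYCCODRAFT_1395316 and PYCCODRAFT_1426831 were lower. For wheat straw minus pine 0 members were called (21.6%), with 1 member, PYCCODRAFT_1435885, at an unadjusted p under 0.05 in edgeR, and DESeq2 also called 0. The difference of PYCCODRAFT_1435885 between wheat straw and aspen, -2.11 (95% interval -3.65 to -0.56), missed the limit with edgeR (adjusted p = 0.0528) and passed it with DESeq2 (-2.12, adjusted p = 0.0375).

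On xylan-galactomannan the members split. Against Avicel, the GH43 gene and PYCCODRAFT_1395316 were higher and PYCCODRAFT_1435885 and PYCCODRAFT_1426831 lower, while 30.6% of all gene models were called. The level of PYCCODRAFT_1395316 was low on both sources, with mean RPKM of 3.13 against 1.46 on Avicel. Its call was lost without Avicel replicate 2 (0.98). Against aspen, 3 members were lower and the GH43 gene was not called (24.4% of all). Against pine (36.6% of all) and against wheat straw (23.3% of all) the GH10 gene PYCCODRAFT_1435885 was called lower, at -5.58 (SE 0.81, adjusted p = 1.73e-05) and -3.88 (SE 0.75, adjusted p = 0.000644), and the other 3 were not called. Without pine replicate 2, the first of these changes was -4.59 and still called. The log2 fold change of PYCCODRAFT_1435885 between xylan-galactomannan and aspen was -5.98 (SE 0.83, adjusted p = 3.34e-05). The log2 fold change of PYCCODRAFT_1395316 between xylan-galactomannan and aspen was -6.80 (SE 0.37, adjusted p = 2.50e-09). Without replicate 3 of xylan-galactomannan, the changes of PYCCODRAFT_1435885 in these 4 comparisons lay between -5.90 and -3.47 and were called, and the counts of members called were 3 against maltose, 4 against Avicel, 3 against aspen, 2 against pine and 1 against wheat straw. Both GH10 genes had lower transcript levels on the medium with added xylans than on aspen wood, and PYCCODRAFT_1435885 had lower levels there than on all 4 other substrates. The libraries on those 4 substrates were part of the study's choice of these genes, so these differences are not independent of it.

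The balance of the genes within 1 library does not depend on how libraries are scaled. On xylan-galactomannan the GH43 gene held 70.4 to 90.8% of the summed RPKM of the 4 genes, and its RPKM was 30.9 to 60.1 times that of PYCCODRAFT_1435885. On maltose that ratio was 0.502 to 0.824 and on aspen 0.644 to 1.33. On pine it was 2.27 to 4.99, and on wheat straw 0.460 in replicate 1 and 3.31 and 6.57 in the other libraries. The Avicel libraries gave 3.00, 0.0234 and 1.43, so that replicate 2 was the lowest of all 18 and replicates 1 and 3 lay within the range of the wheat straw libraries. The xylan-galactomannan libraries were above the other 15, replicate 3 included.

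For the GH10 pair, the RPKM of PYCCODRAFT_1395316 was 0.996 to 2.61 times that of PYCCODRAFT_1435885 on aspen and 0.690 to 1.10 times on xylan-galactomannan. On maltose the ratio was 0.338 to 0.446. On Avicel, pine and wheat straw it was between 0.00928 and 0.169, the lowest value being that of pine replicate 2. Both GH10 genes were high together on aspen, both were low together on xylan-galactomannan and maltose, and on pine and wheat straw PYCCODRAFT_1435885 was high while PYCCODRAFT_1395316 was low. The GH115 gene held 63.7 to 87.8% of the summed RPKM on Avicel and between 5.0 and 24.8% in each library on pine, aspen and xylan-galactomannan. On maltose it held 19.9, 15.8 and 26.0%, and on wheat straw 42.9% in replicate 1, where it was the highest of the 4, and 8.9 and 14.3% in replicates 2 and 3.

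**Figure D3:**
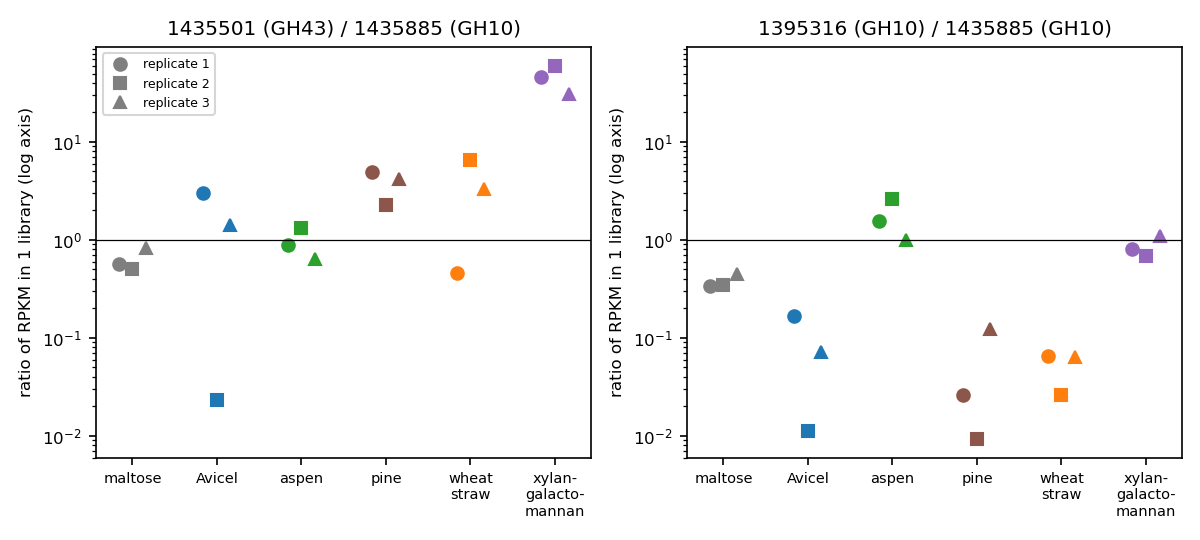
Ratio of the RPKM of the GH43 gene PYCCODRAFT_1435501 (left) and of the GH10 gene PYCCODRAFT_1395316 (right) to that of the GH10 gene PYCCODRAFT_1435885 in the same library, on a log axis, by carbon source. Each symbol is 1 library and the line marks a ratio of 1. The left ratio lies between 30.9 and 60.1 on xylan-galactomannan, above all other libraries, and at 0.0234 in Avicel replicate 2.

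Beside the members, 12 further genes were read that the study annotates in xylan-related families, partly chosen by the study on these same libraries. They are xylan-related by family alone, which does not show that each of them acts on xylan. They comprise a second GH43 gene, the GH51 gene PYCCODRAFT_1357629 (a family of arabinofuranosidases), GH3 genes (beta-glucosidases and beta-xylosidases), a GH30 gene, and carbohydrate esterases (CE) of families that include acetyl xylan esterases, feruloyl esterases and the glucuronoyl esterases of CE15. Against maltose, 11 of 12 were called higher on aspen (19.5% of all gene models) and on pine (22.1% of all), 10 on wheat straw (17.3%), 9 on Avicel (14.1%) and 9 on xylan-galactomannan (19.4%). The medians of the 12 were 4.42, 3.64, 2.52, 3.68 and 2.00 in that order. On xylan-galactomannan 2 of 12 were lower than on maltose (14.5% of all gene models were lower), the esterase gene PYCCODRAFT_1392142 (CBM1-CE1, -1.56, SE 0.41, adjusted p = 0.00389) and the gene PYCCODRAFT_1404940 (CBM1-GH3, -2.29, SE 0.60, adjusted p = 0.00392), where CBM1 is a cellulose-binding module. These were named after their values were seen. The study counts CBM1-GH3 among the enzymes active on glucan polymers. Without replicate 3 of xylan-galactomannan the counts were again 9 higher and 2 lower.

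By mean RPKM over the 18 libraries, the first 3 genes of this list were PYCCODRAFT_1439328 (CBM1-CE16), the GH51 gene PYCCODRAFT_1357629 and PYCCODRAFT_1373375 (CE16), CE16 being a family of acetylesterases. The gene PYCCODRAFT_1373375 reached 358 ± 160 RPKM on Avicel (SD, n = 3) and 207 ± 61.4 on xylan-galactomannan, with 26.8 ± 5.74 on wheat straw and 8.0 ± 2.16 on maltose. The gene PYCCODRAFT_1439328 rose against maltose by 6.46 to 7.92 on the other sources. The GH51 gene rose by 4.99 on aspen, 5.08 on pine, 5.19 on wheat straw, 5.06 on xylan-galactomannan and 2.49 on Avicel, and its RPKM on xylan-galactomannan was 229 ± 61.0 (SD, n = 3). The second GH43 gene, PYCCODRAFT_408613, reached 126 ± 80.3 RPKM on pine and 80.2 ± 15.4 on aspen, but 18.2 ± 2.95 on xylan-galactomannan against 4.87 ± 0.683 on maltose. Its change on xylan-galactomannan was 1.75 (SE 0.46, adjusted p = 0.00377), and on Avicel it was not called (0.17, SE 0.48, adjusted p = 0.799).

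**Figure D4:**
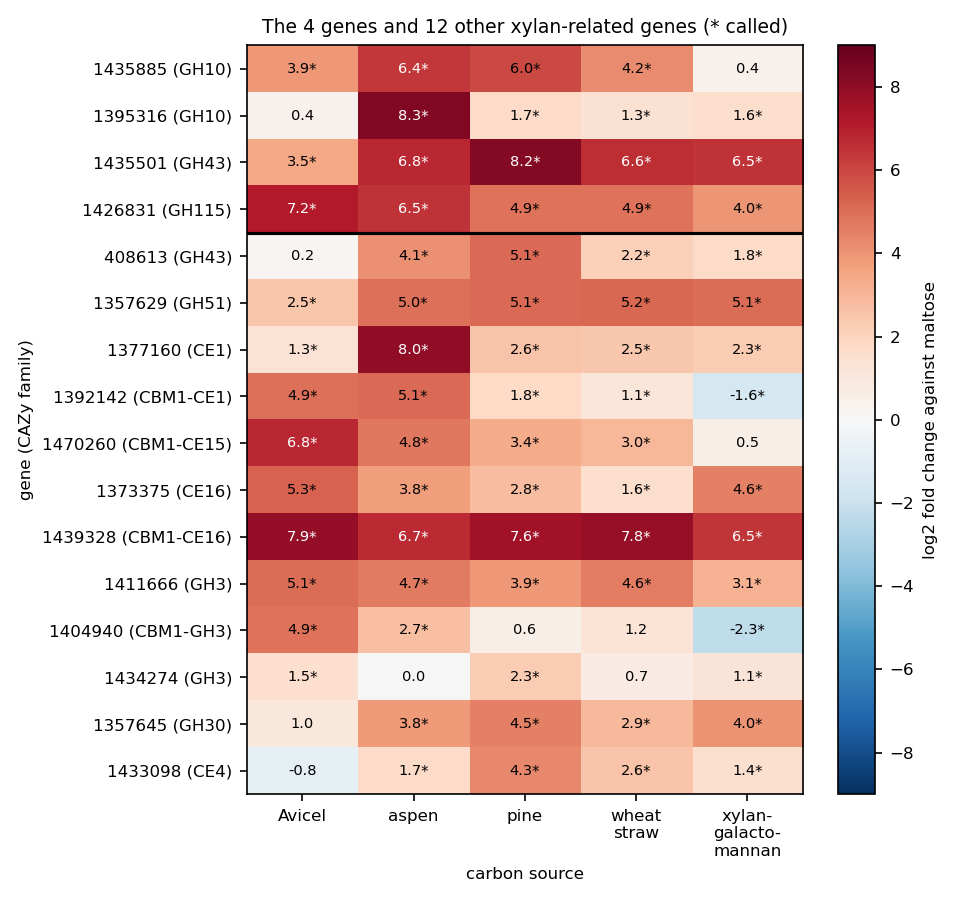
Log2 fold change against maltose (colour and number) of the 4 genes, above the black line, and the 12 further xylan-related genes (vertical) on each carbon source (horizontal). A star marks a call. On aspen 4 of 4 and 11 of 12 genes were called higher, and on xylan-galactomannan 3 of 4 and 9 of 12 were called higher with 2 of 12 lower.

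The genes PYCCODRAFT_408613 and PYCCODRAFT_1435501, both GH43, are immediate neighbours in the Pycco1 annotation, with 407 bases between them. Their levels differed by carbon source. The RPKM of PYCCODRAFT_1435501 was 4.94 to 14.2 times that of PYCCODRAFT_408613 on xylan-galactomannan and 1.85 to 2.53 times on aspen, whereas on maltose it was 0.214 to 0.530 times. On pine the ratios were 3.303, 2.842 and 2.565, on wheat straw 1.92, 8.58 and 9.03, and on Avicel 4.93, 0.486 and 3.68. On the other side of PYCCODRAFT_1435501, the gene PYCCODRAFT_1367359 rose on Avicel, wheat straw and xylan-galactomannan and was not called on aspen or pine, with mean RPKM between 7.62 and 31.9. Of the 6 genes beside the other members, the gene PYCCODRAFT_1368294 beside PYCCODRAFT_1435885 was nearly silent and not tested, and none of the other 5 was called higher than maltose on any source. Of all gene models, 14.1 to 22.1% were called higher, depending on the source, so calls among so few genes say little about these loci. Among the neighbours, PYCCODRAFT_1390896, 119 bases from PYCCODRAFT_1435885, was called lower on Avicel and aspen, at mean RPKM of 93.1 and 89.7 against 201 on maltose. PYCCODRAFT_1470304, beside PYCCODRAFT_1395316, was called lower on aspen, pine, wheat straw and xylan-galactomannan, from a mean of 7.57 RPKM on maltose. PYCCODRAFT_1453506, beside PYCCODRAFT_1426831, was called lower on pine. Of all gene models, 14.5% were called lower on xylan-galactomannan, and this share is not given for the other sources.

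The similarity of each gene's pattern to other genes was measured as Pearson's r over the 18 libraries in log2 normalized counts, among gene models with a mean normalized count of at least 100. Libraries of a group share their carbon source, so r is a description. Between the members r was 0.68 for PYCCODRAFT_1435885 and PYCCODRAFT_1426831, 0.60 for the GH10 pair, 0.55 for PYCCODRAFT_1435885 and PYCCODRAFT_1435501, 0.53 for PYCCODRAFT_1435501 and PYCCODRAFT_1426831, 0.46 for PYCCODRAFT_1395316 and PYCCODRAFT_1435501, and 0.44 for PYCCODRAFT_1395316 and PYCCODRAFT_1426831. For each member, the 3 gene models with the highest r among 9193 are named. So wide a search reaches higher r than the few members can, so it is no measure of how alike the members are. For PYCCODRAFT_1395316 they were the CE1 esterase gene PYCCODRAFT_1377160 (r = 0.970), the AA2 gene PYCCODRAFT_1431101 (0.925), of the family of lignin-active peroxidases, and PYCCODRAFT_1442642 (0.891). The study had already grouped this CE1 gene and this AA2 gene with PYCCODRAFT_1395316 by transcription. It used these same libraries, apart from those on xylan-galactomannan, so their r is no independent evidence. The CE1 gene had a mean of 334 RPKM on aspen and at most 8.73 on any other source, and the AA2 gene 1492 RPKM on aspen and at most 27.2 elsewhere. For PYCCODRAFT_1435501 the closest were the GH51 gene PYCCODRAFT_1357629 (0.964), PYCCODRAFT_1364528 (0.951) and PYCCODRAFT_1439531 (0.948). The study had likewise grouped PYCCODRAFT_1364528 with PYCCODRAFT_1435501. For PYCCODRAFT_1426831 they were PYCCODRAFT_1468641 (0.980), PYCCODRAFT_1449439 (0.976) and PYCCODRAFT_1446065 (0.972), which had mean RPKM on Avicel of 176, 56.6 and 210, their highest of the 6 carbon sources. For PYCCODRAFT_1435885 they were PYCCODRAFT_1433491 (0.947), PYCCODRAFT_1478352 (0.904) and PYCCODRAFT_1359232 (0.900), whose mean RPKM varied less over the carbon sources than that of PYCCODRAFT_1435885, from 49.2 to 98.0 for the first.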

How the data were processed

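Poly(A) RNA was sequenced from 3-day cultures, 3 libraries for each of 6 carbon sources. Reads were filtered and aligned with TopHat2, and HTSeq gave the raw counts of 12690 gene models that the authors deposited. The submitters' processing notes also name DESeq 1.5. The RPKM deposited by the authors are counts divided by mappable length and library total, as checked here for 11862 gene models. Strand use in counting is not given in the sources used here.

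The counts were analysed in R 4.3.3 by the quasi-likelihood test of edgeR 4.0.16 (limma 3.58.1), with TMM factors, filterByExpr and Benjamini-Hochberg adjustment over all gene models tested. One fit held 15 libraries (11112 gene models) for 10 comparisons, and the other held 18 (11168) for the 5 that involve xylan-galactomannan. Calls required an adjusted p below 0.05 with a log2 fold change beyond 1 in either direction. Standard errors were derived from the fold change and the square root of F. The test was checked on simulated data. Levels are log2 of the count over its DESeq size factor, with 1 added. RPKM served to compare genes. Alternatives were RLE factors, DESeq2 1.42.0, no filter, other sets of libraries, a replicate block, Bonferroni adjustment and the omission of single libraries. Summaries used Python 3.11.15 and matplotlib 3.10.9.

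Replicates differed by more than sampling noise (chi-square per degree of freedom 22.3 to 350.0). Same-numbered libraries deviated from their group means with correlations of -0.149 to 0.321, and in 0 of 15 pairs of groups were all 3 over 0.1, so the numbers were not used as pairs. Further genes named are the 3 gene models most alike each member, its immediate neighbours by order in the RefSeq annotation of Pycco1 (12680 identifiers matched), and the 3 genes of the xylan list with the highest mean RPKM. The members and lists were chosen with earlier results of these data known. Lists of homologs, product names and promoter motifs were planned and not used here.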

Additional observations from a re-analysis of the deposited data

How the results depend on the processing

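Over the 60 tests of the members (4 genes in 15 comparisons), the other normalization factors of edgeR (RLE) and the fit without a filter on low counts changed 0 calls. With a replicate block, 1 call changed, that of the GH10 gene PYCCODRAFT_1435885 for wheat straw minus aspen (-2.21, adjusted p = 0.0461), which raised the calls in the 10 comparisons without xylan-galactomannan from 28 to 29. DESeq2 and all 18 libraries in the fit changed the same call and no other. With Bonferroni adjustment the calls fell from 28 to 10 in these 10 comparisons and from 12 to 6 in the 5 with xylan-galactomannan, and 24 calls were lost with 0 changed in direction. The members then called numbered 1 for Avicel minus maltose, 2 for pine minus maltose, 1 for wheat straw minus maltose, 1 for aspen minus Avicel, 0 for pine minus Avicel, 0 for wheat straw minus Avicel, 1 for pine minus aspen, 1 for wheat straw minus aspen, 1 for xylan-galactomannan minus Avicel and 0 for xylan-galactomannan minus wheat straw. In aspen minus maltose only the GH43 gene lost its call (edgeR, Bonferroni-adjusted p = 0.124). Only PYCCODRAFT_1395316 lost its call in xylan-galactomannan minus maltose, and only the GH115 gene in xylan-galactomannan minus aspen. The call in xylan-galactomannan minus pine was kept. The share of all gene models called with this adjustment is not given, so the fall cannot be read as particular to the members. With only the groups compared in the fit, 2 members were called for xylan-galactomannan minus pine. That fit also called PYCCODRAFT_1435885 for wheat straw minus aspen (adjusted p = 0.0013) and lost its call for pine minus Avicel (adjusted p = 0.0759).

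When 1 library was left out at a time, the members called numbered 1 to 2 for pine minus aspen, 1 to 3 for wheat straw minus aspen, 0 to 1 for wheat straw minus pine and 1 to 3 for xylan-galactomannan minus pine, the last against 1 with all libraries. Values that changed sign belonged to comparisons without a call. For PYCCODRAFT_1435885 they ranged from -0.10 to 1.89 for wheat straw minus Avicel and from -1.37 to 0.10 for pine minus aspen. For PYCCODRAFT_1395316 the range was -0.13 to 0.43 for xylan-galactomannan minus wheat straw. For the GH43 gene the ranges were -1.03 to 0.39 for wheat straw minus aspen, -0.48 to 0.02 for xylan-galactomannan minus aspen and -0.64 to 0.77 for xylan-galactomannan minus wheat straw, and for the GH115 gene -0.35 to 0.26 for wheat straw minus pine. Of 160 recomputed differences in level to maltose, 0 moved by more than the larger SD between replicates. Leaving out 1 of 3 libraries cannot shift a group mean by that much, so those recomputed differences decide nothing. With TMM-scaled counts or with RPKM, which could have shifted the levels further, 0 moved. The cause of the changed calls was not tested. Each carbon source had 3 libraries, and the genes had at least 26 counts in every library.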

Other observations

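Among the 12 further genes that are xylan-related by family, the calls on Avicel and on xylan-galactomannan were counted separately for genes with and without a CBM1 module. This split was made after the values were seen, rests on 4 genes and 8 genes, and was not tested. On Avicel 4 of the 4 genes with the module were higher than on maltose, with log2 fold changes between 4.87 and 7.92, and 5 of the 8 without it, between -0.79 and 5.31. On xylan-galactomannan 8 of the 8 genes without the module were higher than on maltose, with changes from 1.15 to 5.06, whereas of the 4 with it PYCCODRAFT_1439328 (CBM1-CE16) was higher, PYCCODRAFT_1392142 (CBM1-CE1) and PYCCODRAFT_1404940 (CBM1-GH3) were lower and PYCCODRAFT_1470260 (CBM1-CE15) was not called (0.51, SE 0.59). Of all gene models, 14.1% were called higher than maltose on Avicel, and 19.4% higher and 14.5% lower on xylan-galactomannan. Without replicate 3 of xylan-galactomannan, whose labels conflict, 8 of the 8 were again higher, and of the 4 with the module 1 was higher and 2 were lower.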
